A study of Coprinopsis cinerea with 4 samples.

Results

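This account describes the 93 genes of the mushroom Coprinopsis cinerea whose transcripts were at least 64-fold more abundant in oidia than in hyphae. They were chosen from 13342 genes by 2 conditions on the counts. Each oidia library had at least 100 reads of the gene, which 3684 genes met, and the mean normalised read count in oidia was at least 64 times that in hyphae. Normalised counts are reads divided by median-of-ratios size factors, which scale the libraries to one another. The contrast between the stages therefore chose the members, and their fold changes are given as a description. Both stages came from the strain okayama7#130, with no treatment in the labels, and each was represented by 2 libraries of poly(A)-selected RNA. Oidia libraries were made with a SOLiD kit and hyphae libraries with an Illumina kit, so for every difference given here the stage and the kit cannot be told apart. Nothing in the labels says that replicates came from separate cultures, so their spread may be technical.

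Oidia are asexual spores that the mycelium of this fungus sheds from aerial branches. A spore is a single cell that can wait, disperse and germinate into a new mycelium, and hyphae are the growing, branching filaments of that mycelium. The gene list of the reference assembly gave no product name for any member, so members are named by locus identifier and no role can be stated for them. For the same reason the labelled stages could not be checked against marker genes. Oidia replicate 1 had 7519091 gene reads and replicate 2 had 6128727, while hyphae replicate 1 had 4586306 and replicate 2 had 3546635.

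The members were few but held a large part of the oidia RNA. Together they took 40.7% (replicate 1) and 41.2% (replicate 2) of the gene reads in oidia. In hyphae their share was 0.444% (replicate 1) and 0.446% (replicate 2). The median member was 138-fold higher in oidia, counting 1 gene with no hyphal read at its lower bound. The fold was below 100 for 28 members, between 100 and 1000 for 59, and above 1000 for 5. In edgeR's quasi-likelihood fit of all genes every one of the 93 passed as higher in oidia at a Benjamini-Hochberg adjusted p of 0.05, where 37.8% of the 9866 tested genes did. Both oidia libraries lay above both hyphae libraries for all 93, against 41.8% of tested genes. The rule used this contrast, so nothing is read from these counts. In the authors' deposited table the adjusted p was at most 1.59e-18 for the 93 members, and 26.7% of its genes with a p were higher in oidia at an adjusted p under 0.05.

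**Figure D1:**
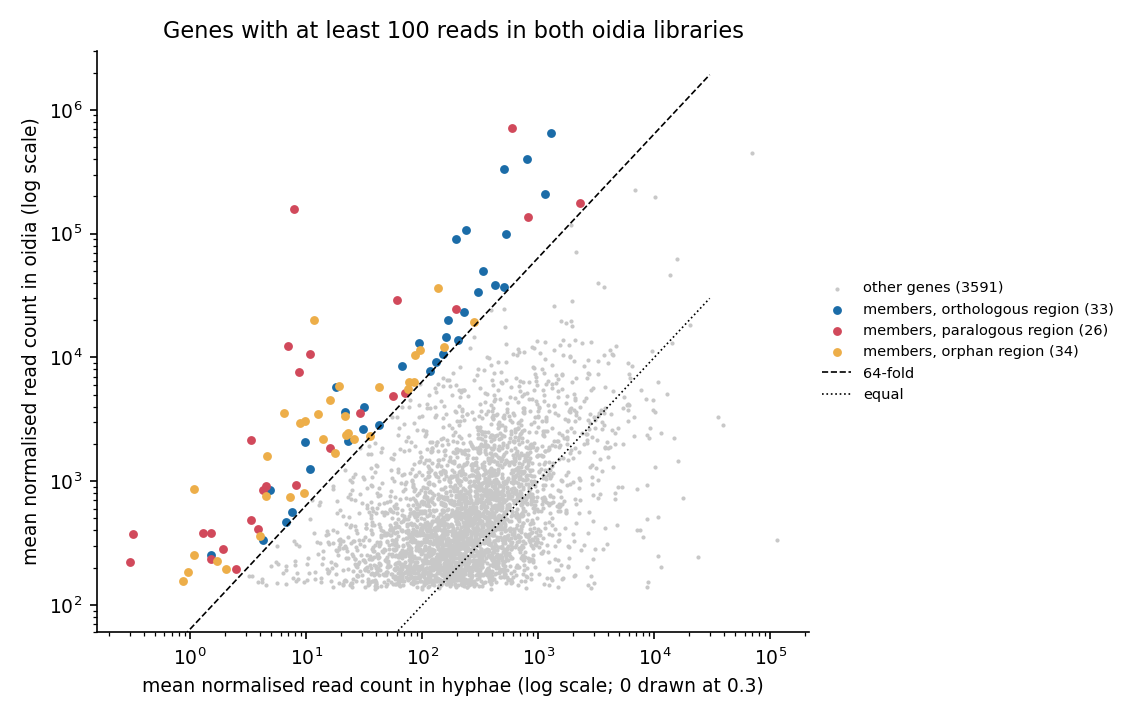
Mean normalised read count in oidia against that in hyphae for the 3684 genes with at least 100 reads in both oidia libraries, both axes logarithmic, 1 point per gene and each mean over 2 libraries. The 93 members, coloured by the class of their coding region, lie on or above the dashed 64-fold line and make up 2.52% of these genes; a gene with no hyphal read is drawn at 0.3.

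A handful of members supplied most of the reads. CC1G_04673 had 610729 and 476896 reads in the oidia libraries and 913 and 691 in the hyphae libraries. It alone took 7.95% ± 0.241 of oidia gene reads (SD, n = 2). CC1G_13924 had 533678 and 458464 reads in oidia against 2005 and 1527 in hyphae, and CC1G_03927 had 311390 and 294477 against 1217 and 966. CC1G_11300 had 286464 and 220663 reads in oidia against 797 and 574 in hyphae. In each of these 4 genes both oidia libraries exceeded both hyphae libraries by over 2 orders of magnitude on the normalised scale. The 4 genes summed to 23.4% ± 0.351 of oidia gene reads and 0.107% ± 0.00112 of hyphal gene reads (SD, n = 2 each).

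A further 7 members each had at least 1% of oidia gene reads. CC1G_09266 took 2.32% ± 0.0894, CC1G_14508 took 1.97% ± 0.0187 and CC1G_04666 took 1.77% ± 0.0260 (SD, n = 2 each). CC1G_02341, CC1G_07866 and CC1G_15006 took 1.53%, 1.20% and 1.11%, and CC1G_09698 took 1.01%. The 11 leading members together held 34.3% ± 0.382 of oidia gene reads, and the other 82 held 6.61% ± 0.0429 (SD, n = 2 each). The set is therefore a steep series of levels and not a block of equally abundant genes. Total oidia reads per member ran from 237 to 1087625.

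**Figure D2:**
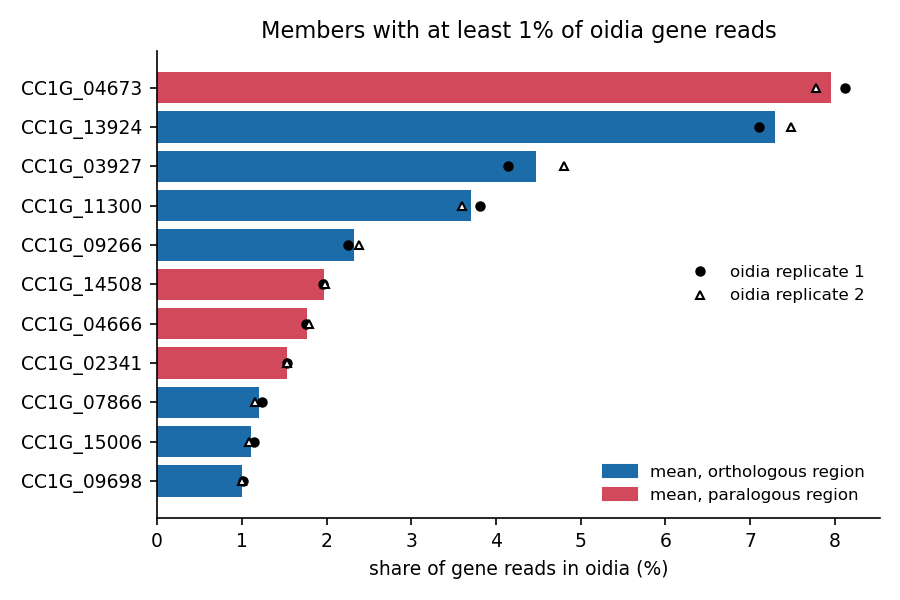
Share of oidia gene reads (%, linear axis from 0) of the 11 members with at least 1%. Bars are the mean of the 2 oidia libraries, circles and triangles are the single libraries, and colour marks the class of the coding region. CC1G_04673 and CC1G_13924 lead with 7.95% and 7.29%, and CC1G_03927 has the widest gap between its libraries.

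Read shares depend on transcript length, so levels were also set on a per-length scale. The table holds, beside the gene rows, rows for coding regions with their own reads and coordinates, and each member was linked to 1 such region. On normalised reads per kilobase of region, CC1G_04673 ranked 1 of 13204 regions in oidia and 289 in hyphae. CC1G_14508 ranked 2 in oidia and 8 in hyphae, the only member among the 100 highest regions of hyphae. Among the 100 highest regions of oidia were 36 members. In hyphae 43 of the 93 members lay above the median region, so many were detectable there and not close to 0. A read that overlaps a short region only in part may still be counted, so per-kilobase levels of short regions may be too high in both stages. Region length is the span from first to last base, so introns would be counted and levels of regions with introns may be too low.

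The members with the most hyphal reads were CC1G_14508, CC1G_13924, CC1G_09266, CC1G_02341 and CC1G_03927. CC1G_14508 had 3501 and 2706 hyphal reads against 146939 and 121385 in oidia, a 77.5-fold difference of normalised means. CC1G_09266 had 1768 and 1341 against 169747 and 146104, or 183-fold, and CC1G_02341 had 1224 and 996 against 114856 and 93816, or 168-fold. These genes thus had many reads in both stages. CC1G_14508 overlaps another gene, however, and its coding-region row had a fold of only 42.3. At the other end, 16 members had fewer than 10 hyphal reads over both libraries.

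Of the 5 members with a hyphal read and a fold above 1000, 4 had at most 32 hyphal reads over both libraries. The other was CC1G_04673, the most abundant member, at 1213-fold. For CC1G_04666 the hyphae libraries held 11 and 10 reads and the oidia libraries 131719 and 109617, a 20358-fold difference of normalised means with a log2 fold change (oidia over hyphae) of 14.27 ± 0.12 (SE, edgeR). Its 95% exact (Clopper-Pearson) interval for the ratio of reads was 13492 to 33318. Its region lies on chromosome 3 from 751910 to 752481, in the table's own coordinates, for which the sources used here name no genome build.

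CC1G_14007 followed with 15 and 5 hyphal reads and 11295 and 7800 oidia reads, which gave a log2 fold change of 10.67 ± 0.12 (SE, edgeR). CC1G_03264 had 19 and 13 against 16607 and 13685, also with a log2 fold change of 10.67 ± 0.11 (SE, edgeR). For CC1G_14510 the single hyphal read, in replicate 1, faced 330 and 238 oidia reads. Its scaled ratio of reads was 1019, with a 95% exact interval of 182 to 40332. CC1G_14485 had no hyphal read and 182 and 156 oidia reads, at least 202-fold higher when 3 reads over both hyphae libraries are taken as the floor (lower limit 164 by the exact interval). The size of the ratio is poorly fixed where hyphal reads are so few. Intervals and floors cover counting error only, since the reads carried no molecular identifiers.

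Around the threshold the set had no gap. The 3 members nearest above it were CC1G_03124 at 65.5-fold, CC1G_01738 at 66.9-fold and CC1G_04581 at 67.2-fold. The 3 genes nearest below it were CC1G_04405 at 63.97-fold, CC1G_13192 at 63.6-fold and CC1G_09228 at 63.3-fold. CC1G_04405 had 41 and 37 hyphal reads against 1619 and 1212 in oidia, and CC1G_03124 had 43 and 50 against 2006 and 1512. The 95% exact interval of the read ratio lay wholly above 64 for 76 members and included 64 for 17, and it also included 64 for 25 genes outside the set. Membership near the line is therefore not fixed within counting error. It also depended on the scaling, since with libraries scaled by total gene reads 31 genes met the rule, all of them among the 93. Under that scaling the median over all 9866 tested genes moved from -0.25 to -1.79 (log2, oidia over hyphae).

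The coding regions of 8 members were exactly 84 bases long, which is 28 codons if they hold no intron. They were noticed after the values were seen. The table lists 8 regions of this length in all, each of them in the set and each classed as paralogous by the table itself. The genes are CC1G_14007, CC1G_14008, CC1G_14010 and CC1G_14011 on chromosome 2, CC1G_08185 on chromosome 5, CC1G_14855 and CC1G_14884 on chromosome 7 and CC1G_03452 on chromosome 8. Region length was not part of the rule. Together they held 1.03% ± 0.00342 of oidia gene reads and 0.0120% ± 0.000382 of hyphal gene reads (SD, n = 2 each), and their median fold was 566.

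Levels differed widely within this group of genes with short coding regions. CC1G_14011 was the most abundant, with 24646 and 19427 reads in oidia and 89 and 74 in hyphae. CC1G_14010 had 20003 and 17177 in oidia and 297 and 231 in hyphae, and CC1G_14008 had 726 and 574 in oidia and 8 and 4 in hyphae. The oidia level of CC1G_14008 was thus far below that of its neighbours although its region has the same length. CC1G_14884 had 8883 and 7174 reads against 16 and 13, CC1G_14855 had 1842 and 1443 against 5 and 4, and CC1G_08185 had 4611 and 3229 against 119 and 77. CC1G_03452 had 5442 and 6007 oidia reads against 15 and 9 in hyphae. In all 8 genes the stages were apart by at least 72.0-fold, the value of CC1G_08185. The sources used here do not say what was done with reads matching more than 1 copy, so the value of any single paralogous gene is uncertain.

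**Figure D3:**
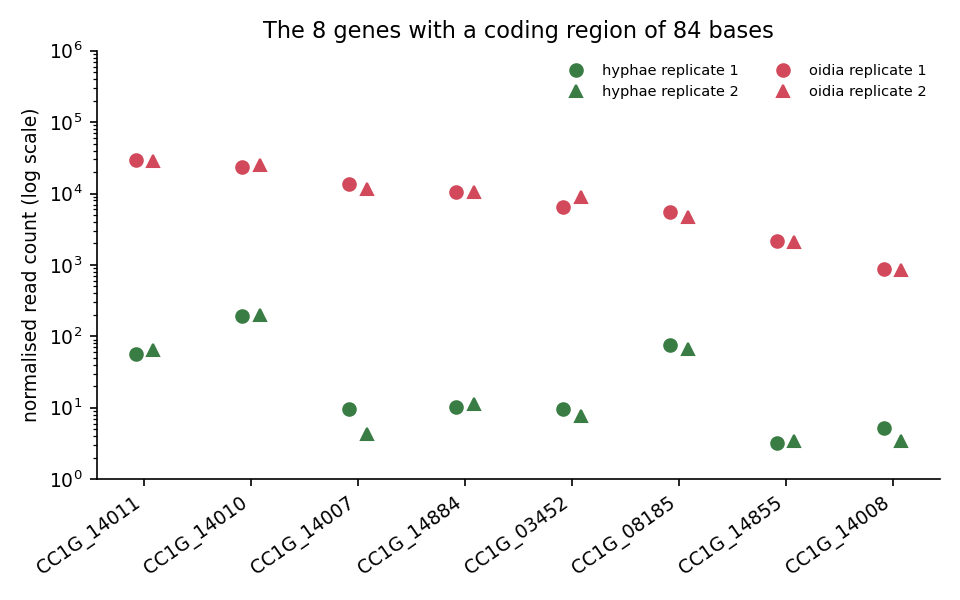
Normalised read count (log axis) of the 8 genes with a coding region of 84 bases in each of the 4 libraries, ordered by their share of oidia gene reads. Hyphae are green and oidia red, circles are replicate 1 and triangles replicate 2. No hyphae point reaches the oidia points of its gene, and CC1G_14007 has the widest gap between hyphae libraries.

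The 4 genes of chromosome 2 with these short coding regions lie in 2 pairs. CC1G_14007, from 3085435 to 3085518, is followed 753 bases later by CC1G_14008, and CC1G_14010, from 3099158 to 3099241, is followed 1298 bases later by CC1G_14011. Between the pairs lie 12802 bases with 4 genes outside the set. Of these CC1G_06129 had 32 and 21 oidia reads and 3 and 3 hyphal reads, and CC1G_14009 had 1 and 1 oidia reads and 37 and 35 hyphal reads. CC1G_06131 had 1789 and 1523 oidia reads and 533 and 367 hyphal reads. The stretch therefore mixes genes high in oidia with 1 that is higher in hyphae.

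Members made up a larger share of the shortest coding regions than of longer ones. Of 31 linked regions of at most 150 bases 11 were members, 8 were tested genes outside the set and 12 had too few reads to test. Of the 11 members, 8 are the regions of 84 bases noticed after the values were seen, so the share in this length class rests mostly on them. Members were 57.9% of the tested genes in this class and 8.05% at 151 to 300 bases. The share was 0.880% at 301 to 600 bases, 1.12% at 601 to 1200, 0.659% at 1201 to 2400 and 0.584% above 2400 bases, with no steady fall over these longer classes. These shares are of tested genes, and all members were tested through their oidia reads. They are therefore higher than shares of all linked regions would be. At 151 to 300 bases 7 of 256 linked regions were members and 169 were not tested. At 301 to 600 bases 6 of 1316 were members and 634 were not tested. Among the 8 tested genes outside the set with at most 150 bases, 4 were called higher in oidia and 1 lower (edgeR, adjusted p under 0.05). At 151 to 300 bases 32 of 80 such genes were called higher and 32 lower. The 2 stages had different library kits, and whether the kits recover short transcripts differently was not tested. Region length need not match transcript length. Not every short region was high in oidia. CC1G_15422, with 87 bases, had 183 and 125 oidia reads against 311 and 260 in hyphae, while CC1G_14462, of the same length and a member, had 10069 and 6077 against 134 and 102.

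**Figure D4:**
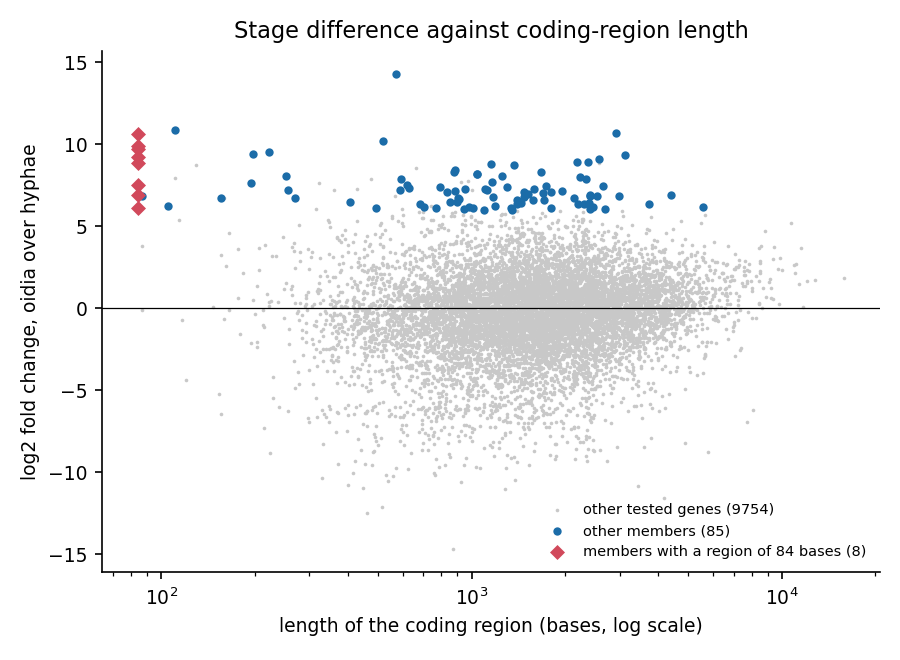
Log2 fold change (oidia over hyphae, edgeR) against the length of the coding region (bases, log axis), 1 point per tested gene. Red diamonds are the 8 members with 84 bases, blue points the other members and grey points the remaining tested genes. The members span lengths from 84 to 5583 bases. Of the 19 tested regions of at most 150 bases 11 are members, and 12 more regions of that length were not tested.

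The 5 regions of 111 bases, all on chromosome 4, differed in level. CC1G_14485 is the member among them. CC1G_14483 had 112 and 75 oidia reads and 0 and 1 hyphal reads, and missed the set only because 1 oidia library had fewer than 100 reads. CC1G_14484 had 13 and 17 oidia reads, while CC1G_14479 had none and CC1G_14481 had 0 and 1. All 5 were classed as paralogous.

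By the table's own classes, 33 of the 93 members have an orthologous coding region, 26 a paralogous one and 34 an orphan one. These are 35.5%, 28.0% and 36.6% of the members. Among the 3677 linked genes that met the same minimum of oidia reads the shares were 70.9%, 9.68% and 19.4%, and among all 13204 linked genes 44.1%, 28.1% and 27.8%. The difference was described and not tested. The 33 orthologous members carried most reads, 24.5% ± 0.584 of oidia gene reads, against 14.4% ± 0.199 for paralogous and 2.00% ± 0.0460 for orphan members (SD, n = 2 each). The median fold was 120 for orthologous, 184 for paralogous and 135 for orphan members, with the paralogous CC1G_14485 counted at its lower bound. Fewer than 10 hyphal reads were found for 1 orthologous, 9 paralogous and 6 orphan members. The order of these medians thus rests in part on poorly fixed ratios.

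Members also differed in length by class. The median coding region was 1444 bases for orthologous, 394 for paralogous and 1150 for orphan members, against 1885, 1725 and 1598 for genes with the same minimum of oidia reads. The orphan CC1G_14294 had the longest region of the set, with 5583 bases, 5373 and 4294 oidia reads and 130 and 101 hyphal reads. No member's region overlapped a row for a repeat, centromere or transposon. The same count was not made for other genes, so this cannot be called particular to the members. Members were found on all 13 chromosomes, from 2 on chromosomes 9 and 13 to 15 on chromosome 4. As a share of linked genes they ran from 0.220% on chromosome 5 to 1.29% on chromosome 10.

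A minority of the members lay close to each other. Another member lay within 10 kb of 19 members, or 20.4%, while 5.42% of the 13111 linked genes outside the set had a member within that distance. For genes outside the set with at least 100 reads in both oidia libraries the share was 5.92%. The 19 members formed 9 groups, 8 pairs and 1 group of 3. Among the pairs, CC1G_00609 with CC1G_13750 and CC1G_15243 with CC1G_01515 have overlapping gene intervals and may share reads. The pairs of genes with short coding regions on chromosome 2 are paralogous, so their single values are uncertain. Position was not used by the rule, and the shares are given without a test.

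The group of 3, on chromosome 4, was CC1G_14508, CC1G_14509 and CC1G_14510, all paralogous. CC1G_14509 had 340 and 282 oidia reads against 4 and 6 in hyphae, so it and CC1G_14510 were far less abundant than CC1G_14508. Of the 3 genes between CC1G_14508 and CC1G_14509, CC1G_04119 had 365 and 320 oidia reads and 251 and 177 hyphal reads. The pair CC1G_05447 and CC1G_07995 on chromosome 8 has 26 bases between its coding regions. CC1G_07995 had 30745 and 24409 oidia reads against 194 and 175, and CC1G_05447 had 16239 and 13221 against 415 and 335. A second pair lies nearby, CC1G_05438 with 171 and 127 oidia reads and CC1G_05439 with 10374 and 9316. Between these pairs lie 9 genes outside the set, among them CC1G_05441 with 81 and 41 oidia reads and 1665 and 1255 hyphal reads. CC1G_04666 and CC1G_04673, both on chromosome 3 and among the most abundant members, are separated by 6 genes, of which CC1G_04671 had the most oidia reads with 300 and 308.

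Genes directly beside members leaned to oidia too. Of 136 tested genes outside the set that are next to a member, 82 were called higher in oidia (edgeR, adjusted p under 0.05), or 60.3%, against 37.8% of all tested genes. Their median log2 fold change was 1.03, and it was 0.33, -0.02, 0.08 and -0.10 for genes 2, 3, 4 and 5 places away. All tested genes outside the set had a median of -0.27. At least 16-fold higher in oidia were 20 of the 136, or 14.7%, against 2.79% of all tested genes outside the set. CC1G_03785, next to CC1G_03786, had 2708 and 2279 oidia reads against 70 and 75 in hyphae. CC1G_00610, next to CC1G_13750, had 10116 and 8038 against 404 and 298.

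The share of next genes called higher in oidia was 65.4% of 52 where the coding regions were at most 500 bases apart, 56.0% of 50 at over 500 and up to 1000 bases and 58.8% of 34 farther apart. Whether reads of a member run into the next gene was not tested. The sources used here do not state whether counting used the strand. Gene intervals of 7 members overlap another gene, and in 2 cases the partner is also a member, CC1G_00609 with CC1G_13750 and CC1G_15243 with CC1G_01515. Reads in the overlap of such genes cannot be assigned to 1 of them.

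**Figure D5:**
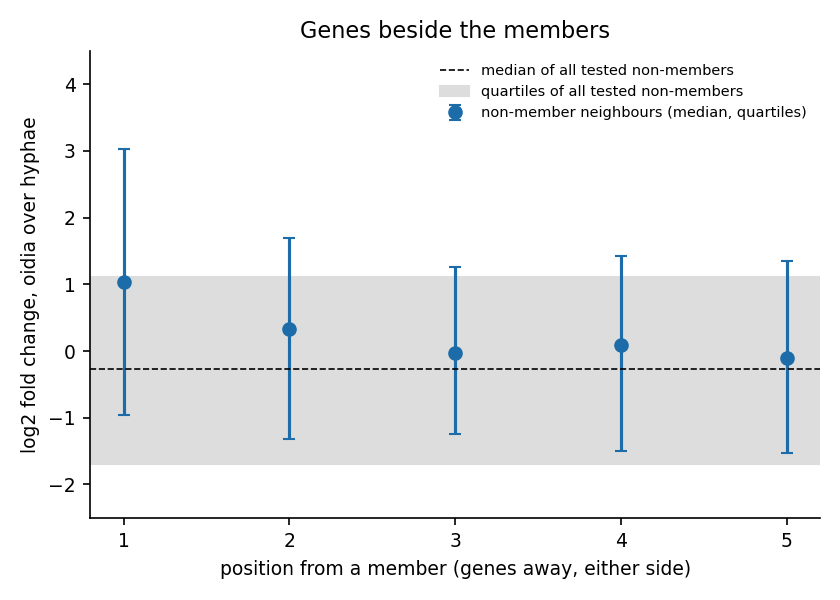
Log2 fold change (oidia over hyphae, edgeR) of tested genes outside the set by their place beside a member, from 1 to 5 genes away on either side. Points are medians and bars the quartiles over genes, and the dashed line and grey band give the median (-0.27) and quartiles of all tested genes outside the set. The median is 1.03 for next genes and near 0 from the third place on.

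The 2 oidia libraries gave closely similar values for the members. The ratio of normalised counts, replicate 1 over replicate 2, ran from 0.697 in CC1G_11418 to 1.34 in CC1G_14462, and 48 of the 93 were higher in replicate 1. The median absolute log2 ratio was 0.0754 for members and 0.102 for the 3591 other genes with at least 100 reads in both oidia libraries. With at least 1000 reads the values were 0.0673 for 65 members and 0.0658 for 606 others. CC1G_03452 had a ratio of 0.732. In hyphae, where members had few reads, the median absolute log2 ratio was 0.241 over the 87 members with a read in both libraries, against 0.0922 for the others. CC1G_07803 had 14 hyphal reads in replicate 1 and none in replicate 2, against 824 and 585 in oidia.

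Reads outside genes gave a rough measure of hyphal background, which may be too low because the rows were chosen for their lack of oidia reads. The 535 rows for repeats and centromeres that lie outside genes and lack oidia reads gave a hyphal density of 0.398 reads per kilobase in replicate 1 and 0.204 in replicate 2. In 6 members the hyphal density of the coding region was at or below this in at least 1 hyphae library. Each of those 6 had no read in that library, so the comparison only repeats those empty counts. CC1G_14485 had none in either hyphae library, and the other 5 had between 1 and 14 reads in the other hyphae library.

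The coding-region rows gave a second count of the reads of each member. In oidia the region held between 90% and 110% of the gene row's reads for 81 members. In 90 members the region row was also at least 64-fold higher in oidia, and in CC1G_14508, CC1G_01738 and CC1G_02426 it was lower. The region of CC1G_14508 spans 105 bases and had 80493 and 68610 reads in oidia, 55.6% of the gene row, but 3585 and 2744 in hyphae, 102% of the gene row. Its region fold was 42.3. The gene overlaps CC1G_04116, and whether reads of that gene enter the region row was not tested.

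CC1G_14884 and CC1G_14855, both with regions of 84 bases, had 26.5% and 13.1% of their oidia gene reads in the region. Most oidia reads of these 2 gene rows were thus not counted in the region row. CC1G_15243, which overlaps CC1G_01515, had 27.7% of its oidia gene reads in the region. Where the remaining reads lie was not tested, since gene and region rows are separate counts. In hyphae the region of CC1G_14884 held 11 and 9 of 16 and 13 reads. For CC1G_02426 the region held more reads than the gene row in both stages, 3499 and 2760 in oidia against 134 and 115 in hyphae, with a region fold of 44.6. What these additional reads come from was not tested. CC1G_01738, which overlaps CC1G_01737, had a region fold of 45.1.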

How the data were processed

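Poly(A)-selected RNA of 2 oidia and 2 hyphae libraries was analysed, grouped by sample title. The tools named in the submitters' processing notes are DESeq, TopHat and Bowtie 0.12.7. For the counter, strand setting, multimapping, genome build and annotation nothing is given in the sources used here. The authors deposited read counts per gene and element. Per the file headers they also deposited mean normalised signal per stage, a fold ratio, log2 fold changes and p-values from DESeq. The deposited ratio and log2 columns are described as hyphae over oidia, whereas the deposited stage means give oidia over hyphae. Directions therefore came from the counts, except for the share of genes higher in oidia by the authors' adjusted p. For that share the deposited stage means gave the direction. Of these deposited columns only the adjusted p-value and, for that share, the stage means were used.

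The members, the lists and the rule for named genes were chosen with earlier results of these data known. All genes were fitted with edgeR 4.0.16 in R 4.3.3 (filterByExpr, TMM, quasi-likelihood test, Benjamini-Hochberg adjustment over 9866 tested genes). All members passed the low-count filter, through their oidia reads. The SE of a log2 fold change is its absolute value divided by the square root of F, an approximation. The procedure was tested on simulated counts. Few genes were changed there, in either direction, so that test does not bear on the choice of scaling. Named genes were the 10 members with the largest oidia share, the 5 with the largest fold and a hyphal read, those with no hyphal read, 3 on each side of the threshold, the longest group within 10 kb and the 5 with the most hyphal reads. Other genes were named after their values were seen.

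Gene rows were linked to coding-region rows by position in the gene list of assembly CC3 (RefSeq), with 13340 of 13342 genes matched and 13204 linked to 1 region. All 749 gene rows of at least 200 reads that shared their 4 counts with exactly 1 region row were linked to that row by position. The assembly list served for links and gene order, and its coordinates are not printed. Planned groupings by protein sequence, promoter and product name were not run, as no sequence or product name was at hand. Alternatives were other scalings, filters, DESeq2 1.42.0, a replicate block and leaving out each library. With 2 libraries a stage, an exact permutation test of a single gene was not used.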

Additional observations from a re-analysis of the deposited data

How the results depend on the processing

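All 21 named genes kept direction and call in every alternative fit, 231 values in all. All 93 members were called higher in oidia in every alternative, except that 89 remained testable, and were called, with a mean normalised count of at least 100. The named genes are members or lie just below the 64-fold line, and the rule used these same libraries. The direction and calls were thus all but fixed in advance, and nothing is read from them. The median log2 fold change of the members was 7.07, and 7.11 with DESeq2 size factors, 7.11 with the DESeq2 Wald test, 6.80 with upper quartiles, 5.52 with total counts and 6.63 under that mean filter. Leaving out single libraries gave 6.98 to 7.08. Genes called higher in oidia numbered 3727, and 1549 with total counts, 2170 under the mean filter, and 3452 to 3699 without single libraries. The rule found 93 to 101 genes without single libraries, 92 with TMM, 76 with upper quartiles and 31 with total counts. Of those 31, 22.6% were orthologous and 41.9% paralogous. The coding-region rows, used after the data were seen, gave 96 genes, 90 of them members. Without paralogous members 67 remained, and 86 without those that overlap a gene.

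The replicate differences of the 2 stages were hardly correlated across genes (r = -0.00871, 2 pairs). Such a value cannot show whether replicate numbers pair the libraries, since pairing with little effect would give the same. With the number as a replicate block 3642 genes were called higher in oidia, all 93 members among them, with a median of 7.07.

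Precision is limited by hyphal reads, fewer than 10 for 16 members.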
